A study of Mus musculus with 3 samples.

Results

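The neutrophil-attracting CXC chemokines and their receptor were followed through mouse skin cells. The 7 genes were the ligand genes Cxcl1, Cxcl2, Cxcl3, Cxcl5, Ppbp and Pf4 and the receptor gene Cxcr2. They were taken by symbol as 7 of the 32285 genes of the count matrices. Cells came from the dorsal skin of 8-week-old male C57Bl/6 mice in telogen, the resting phase of the hair cycle, and CD45+ cells (leukocytes) had been enriched on magnetic beads after tissue digestion. Each of 3 groups had 1 single-cell 3' library, from 1 mouse each by the paper's description. WT_Ctrl came from a wild-type mouse that received no UVB, and WT_UV from a wild-type mouse exposed to UVB 3 times. RP_UV came from a mouse of genotype RP exposed in the same way. RP mice carry Rosa26-rtTA and Tre-Ptgs2, so that doxycycline switches on a rat Ptgs2 transgene in all tissues. Ptgs2 encodes Cox-2, the enzyme that starts prostaglandin synthesis. No unirradiated RP library was analysed here, so genotype and its response to UVB cannot be told apart.

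A single library per group gives no replicate check of any difference, and no statistical test was applied. A level is the number of unique molecular identifiers (UMIs, counted RNA molecules) of a gene in the cells summed, scaled to 1000000 UMIs of all genes and written CPM. Intervals in parentheses are 95% intervals for counting error only. The filter kept 5309 WT_Ctrl cells, 5225 WT_UV cells and 6070 RP_UV cells, and the median cell had 4246, 10557 and 3774 UMIs. WT_UV came from another flow cell than the other libraries, so in any comparison with WT_UV the sequencing run and the group cannot be told apart. RP_UV against WT_Ctrl is the pair of the same run, but these libraries differed in both UVB and genotype. The targeted gene Ptgs2 was at 14.4 CPM in WT_Ctrl, 117 in WT_UV and 486 in RP_UV over all kept cells, with keratinocytes at 5.54, 7.2 and 587 CPM. In neutrophils it was lower in RP_UV, at 4741 CPM (4601 to 4884), than in WT_UV, at 6250 (5896 to 6621), with 398 in WT_Ctrl from 9 UMIs. Reads were counted on the mouse genome, so these values do not tell rat transgene RNA from mouse Ptgs2 RNA. How much of the rat RNA was counted was not tested. Libraries shared between 8 and 11 cell barcodes per pair.

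Chemokines of this family are small secreted proteins that draw neutrophils out of the blood towards inflamed tissue. Cxcl1, Cxcl2, Cxcl3, Cxcl5 and the processed product of Ppbp bind Cxcr2, a G protein-coupled receptor carried chiefly by neutrophils. Pf4, platelet factor 4, is a relative that does not act through Cxcr2 and is best known from platelet granules, although tissue macrophages also transcribe it. In skin, macrophages, neutrophils themselves and stromal cells can all make these ligands after injury, and their transcription is driven by the NF-kB pathway downstream of interleukin 1 and tumour necrosis factor.

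The 6 ligand genes lay on mouse chromosome 5 (build GRCm38.p6, the mm10 assembly) within 147 kb, in the order Cxcl5, Ppbp, Pf4, Cxcl3, Cxcl1 and Cxcl2. Cxcl1 occupied chr5:90891245-90893121, Cxcl2 chr5:90903899-90905938 and Cxcl3 chr5:90786101-90788093. The receptor gene Cxcr2 lay apart, at chr1:74153994-74161246. RefSeq promoter windows (250 bases before to 50 after the start) matched 6 of the 7 genes. In those windows the NF-kB consensus, searched on both strands, was found in Cxcl1, Cxcl2 and Cxcl3 and in none of the Ppbp, Pf4 and Cxcr2 windows. It occurred in 8.46% of the 32851 RefSeq promoter windows. The 150 bases before the start of these 3 genes are shown because they carry the match. Capitals mark the match, which was read on both strands with an offset of 1 base and ended 61 bases before the start in Cxcl1, 87 in Cxcl2 and 63 in Cxcl3. The match is a description of these letters only.
Cxcl1, chr5:90891095-90891244, + strand: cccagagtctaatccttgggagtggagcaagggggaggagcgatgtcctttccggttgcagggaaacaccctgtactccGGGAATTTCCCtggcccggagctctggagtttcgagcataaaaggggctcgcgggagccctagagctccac
Cxcl2, chr5:90903749-90903898, + strand: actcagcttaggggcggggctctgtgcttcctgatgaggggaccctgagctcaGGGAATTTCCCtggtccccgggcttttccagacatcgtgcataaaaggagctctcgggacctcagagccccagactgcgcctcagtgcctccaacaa
Cxcl3, chr5:90785951-90786100, + strand: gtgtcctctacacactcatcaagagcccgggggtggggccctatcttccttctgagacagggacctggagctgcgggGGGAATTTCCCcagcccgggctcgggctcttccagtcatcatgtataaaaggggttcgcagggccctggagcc

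The TATA box (TATAAA), the element that positions the start of transcription, was found in the Cxcl3 and Ppbp windows and in 13.6% of all windows. Only these exact letters were searched. The Cxcl1 and Cxcl2 sequences above carry CATAAA, which differs from it in the first base. Neither the cAMP response element (TGACGTCA, 1.79% of all windows) nor the AP-1 site (TGAGTCA, 5.20%) was found in any of the 6 windows. Because the counting used the 3' ends of transcripts, the stretches shared by Cxcl1, Cxcl2 and Cxcl3 were also measured there. The longest run of bases shared within the last 500 bases of the transcripts was 14 for Cxcl1 with Cxcl2, 14 for Cxcl1 with Cxcl3 and 16 for Cxcl2 with Cxcl3. Over whole transcripts Cxcl2 and Cxcl3 shared a run of 110 bases.

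Cells were put into classes by marker genes, and each class is named only in the sense of X-like. Macrophages formed the largest class, with 1805 WT_Ctrl cells, 2052 WT_UV cells and 2287 RP_UV cells. Neutrophils numbered 12, 56 and 559 in the same order, which was 0.226%, 1.07% and 9.21% of kept cells. Their defining markers were detected in full except Ly6g, which was at 0 in the 12 cells of WT_Ctrl. Monocytes numbered 164, 412 and 52, keratinocytes 1241, 542 and 1152, and pericytes or smooth muscle cells 52, 19 and 183. Fibroblasts numbered 210, 9 and 205, and the 9 cells of WT_UV had their 7 fibroblast markers at a summed 8169 CPM, against 113720 in WT_Ctrl and 38375 in RP_UV. Clusters left without a name held 808, 967 and 920 cells.

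Cxcl2, also known as macrophage inflammatory protein 2, was the Cxcr2 ligand with the most UMIs, and its level over all kept cells was 52.3 CPM in WT_Ctrl, 488 in WT_UV and 1849 in RP_UV. The libraries stood in this order in neutrophils, monocytes, macrophages and dendritic cells, with no overlap of the counting intervals in any of these classes. In T cells the order was different, with 29.7, 157 and 47.7 CPM. Cells of the stroma and epithelium held little of this transcript: non-immune classes together held 0.296%, 0.466% and 1.5% of all Cxcl2 UMIs, although they made up 38.9%, 11.6% and 39.4% of the UMIs of all genes.

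Neutrophils had the highest Cxcl2 level of the named classes in every library. It was 2521 CPM (1909 to 3266) in WT_Ctrl from 57 UMIs, 21199.5 CPM (20542 to 21873) in WT_UV from 3931 UMIs, and 29435 CPM (29084 to 29789) in RP_UV from 26896 UMIs. The ratio was 8.41 (6.48 to 11.1) for WT_UV over WT_Ctrl, where the denominator rests on 12 cells, and 1.39 (1.34 to 1.44) for RP_UV over WT_UV. After thinning every cell to 1000 UMIs, 50% (21.1 to 78.9), 71.4% (57.8 to 82.7) and 90.8% (87.9 to 93.2) of neutrophils had a Cxcl2 UMI. The first pair of these intervals overlapped, and the interval of RP_UV lay above that of WT_UV. Different neutrophil clusters led in the UVB libraries: 47 of the 56 cells of WT_UV belonged to a cluster with 93 cells of RP_UV, whereas 345 cells of RP_UV formed another. Within the shared cluster Cxcl2 was at 21287 CPM in WT_UV and 31279 CPM in RP_UV. A further RP_UV cluster of 121 cells, led besides S100a9 and S100a8 by Retnlg, Slpi and G0s2, had the lower level of 21668 CPM.

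In monocytes, the blood-derived precursors of many tissue macrophages, Cxcl2 was at 358 CPM (320 to 399) in WT_Ctrl, 1097 (1069 to 1125) in WT_UV and 2211 (2041 to 2392) in RP_UV. The ratio was 3.06 (2.74 to 3.43) for WT_UV over WT_Ctrl and 2.02 (1.85 to 2.19) for RP_UV over WT_UV. The class was made up differently in each library: its largest cluster held 72 of 164 cells in WT_Ctrl, another held 201 of 412 in WT_UV, and another 23 of 52 in RP_UV. In the last of these, which also had 51 cells of WT_Ctrl and 108 of WT_UV, Cxcl2 was at 723 CPM (640 to 813), 816 (777 to 857) and 696 (561 to 855), so that within it RP_UV overlapped both other libraries. In the largest cluster of WT_Ctrl it was at 164 CPM there and 1457 over 69 cells of WT_UV. Macrophages stood below monocytes in all 3 libraries, at 93.8 CPM (86.8 to 101.2) in WT_Ctrl, 426 (418 to 434) in WT_UV and 1157 (1137 to 1176) in RP_UV. The ratio of WT_UV over WT_Ctrl in macrophages was 4.54 (4.20 to 4.92), and 2.05 when macrophages were chosen cell by cell from marker UMIs. The same-run ratio of RP_UV over WT_Ctrl was 12.3 (11.4 to 13.4), and 5.31 with that choice. Dendritic cells, which present antigen to T cells, followed at 37.8, 130 and 403 CPM, below macrophages in every library. The order neutrophil, monocyte, macrophage, dendritic cell was therefore the same in the 3 libraries. Markers of the dendritic cells differed between libraries. Xcr1, Clec9a and Itgae were at 0 in the 46 cells of RP_UV, and 7 markers of mature dendritic cells summed to 585, 863 and 273 CPM.

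**Figure D1:**
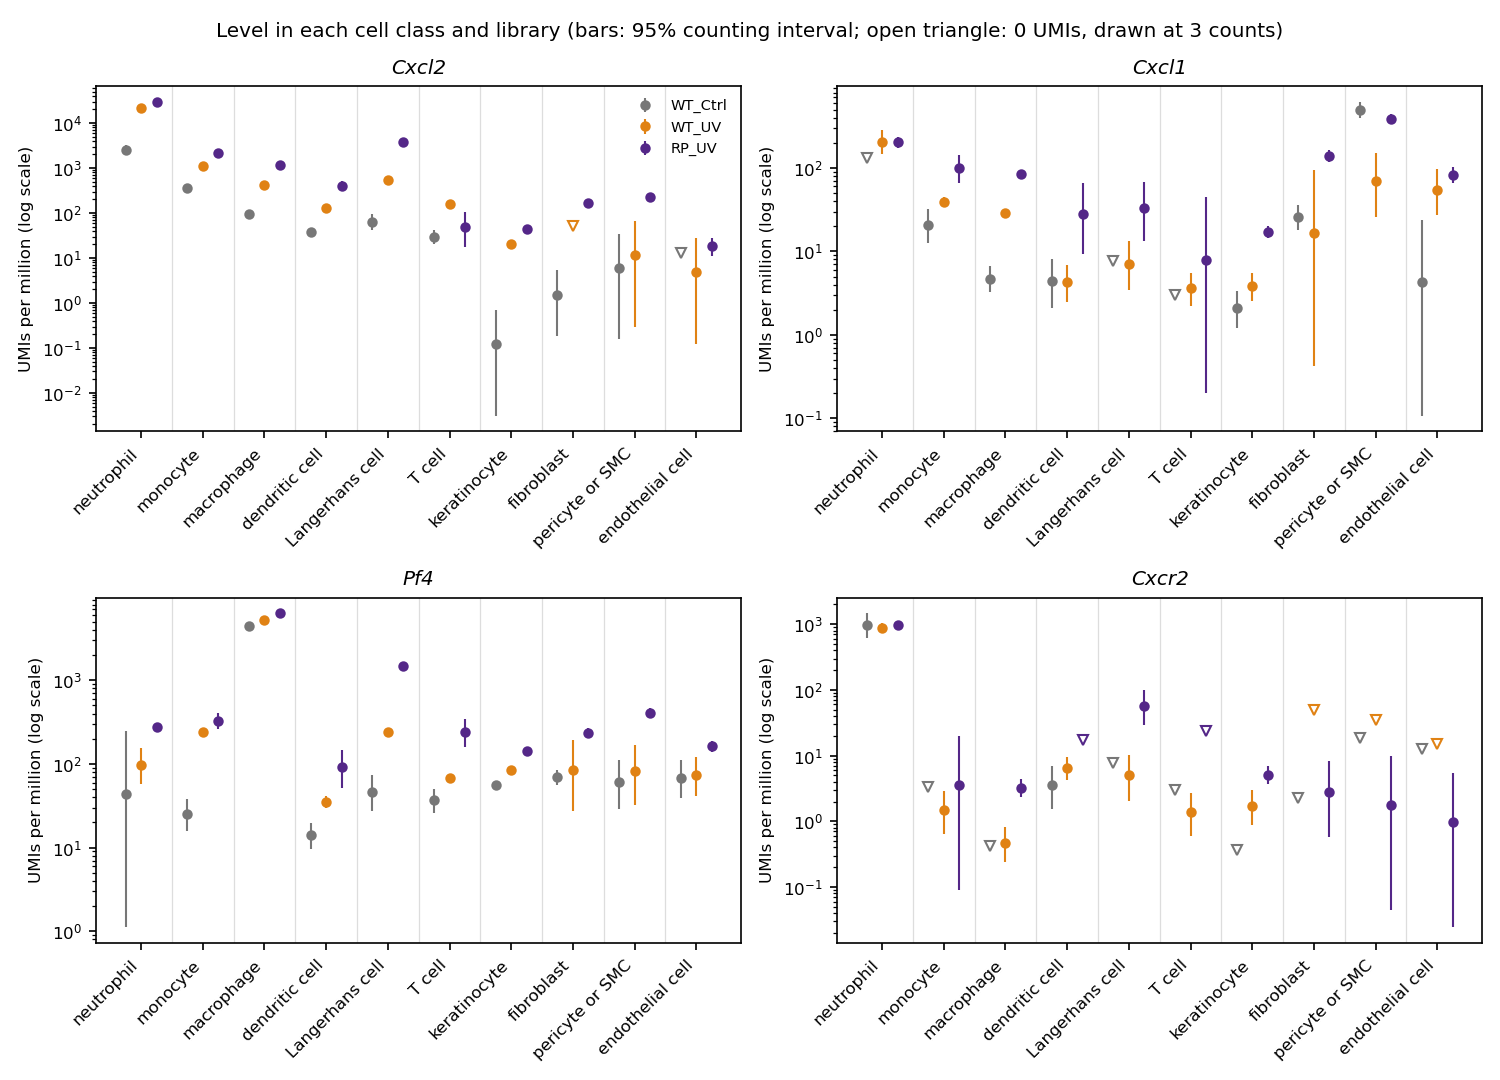
Levels of Cxcl2, Cxcl1, Pf4 and Cxcr2 in CPM (log axis) for 10 cell classes, 1 point per library, with 95% counting intervals as bars and open triangles at the value of 3 counts where no UMI was found. Cxcl2 was highest in neutrophils of every library, Cxcl1 of WT_Ctrl was highest in pericytes or smooth muscle cells at 501, Pf4 was highest in macrophages at 4399 to 6274, and Cxcr2 in neutrophils lay between 890 and 973 in the 3 libraries.

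Most macrophages had no detected Cxcl2, and the transcript was concentrated in few of them. At 1000 UMIs per cell, 3.16% (2.39 to 4.10) of macrophages in WT_Ctrl, 13.1% (11.6 to 14.6) in WT_UV and 27.6% (25.7 to 29.5) in RP_UV had a UMI, and without thinning the shares were 5.98%, 23.8% and 39.6%. T cells, which are not a known source, had a UMI in 1.79% (0.658 to 3.85), 2.48% (1.45 to 3.94) and 4.35% (0.531 to 14.8) of cells at the same depth. The share in macrophages of WT_Ctrl lay within the T cell interval, and the shares in both UVB libraries lay above those of T cells. Few macrophages, 11, 41 and 100 in the order of the libraries, held 50% of the Cxcl2 UMIs of the class. The top 1% of all kept cells held 73.0%, 31.8% and 20.2% of Cxcl2 UMIs.

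**Figure D2:**
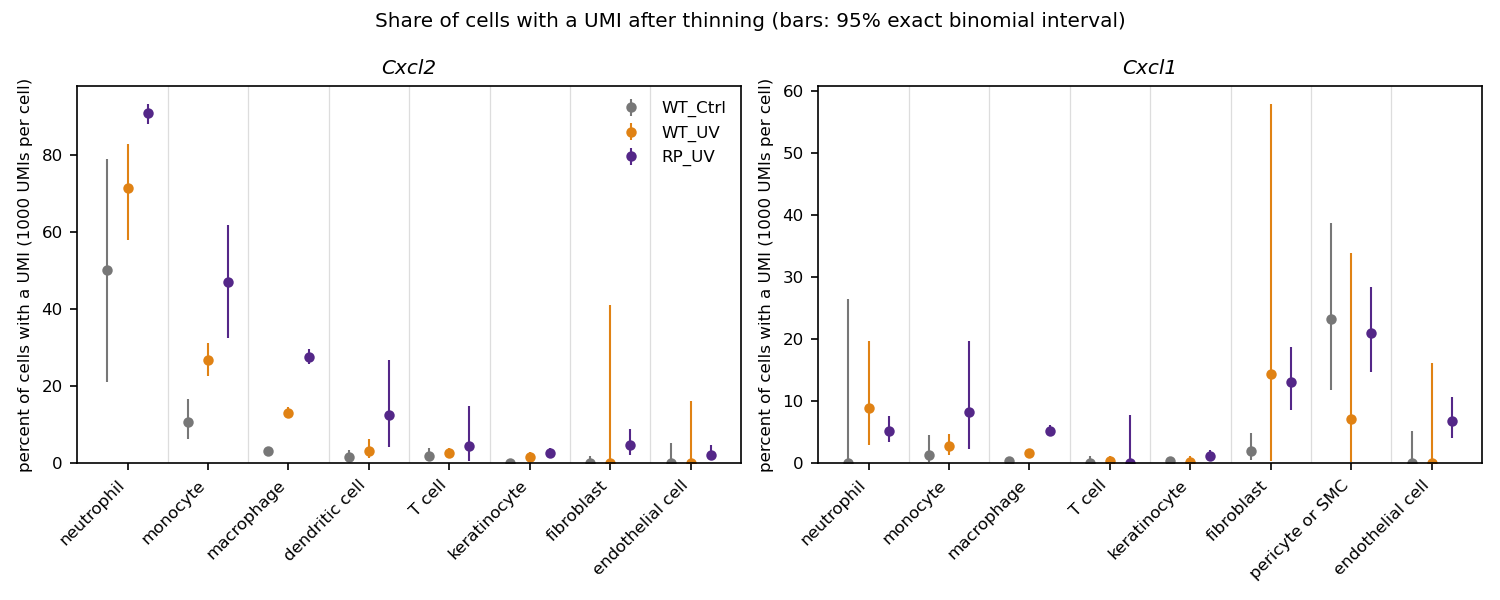
Percent of cells with at least 1 UMI of Cxcl2 (left) and Cxcl1 (right) after each cell was thinned to 1000 UMIs, by class and library, with 95% exact binomial intervals. Cxcl2 reached 90.8% of neutrophils and 27.6% of macrophages in RP_UV, and Cxcl1 reached 23.3% of pericytes or smooth muscle cells in WT_Ctrl and 20.9% in RP_UV.

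Macrophage clusters of each UVB library differed widely in Cxcl2. In RP_UV a cluster led by Il1b, Chil3 and Thbs1 had 8644 CPM over 42 cells, and the largest cluster, 768 cells, had 1160.5 CPM. In WT_UV the Il1b cluster had 3386 CPM over 59 cells, whereas the largest cluster, 637 cells, had 26.8 CPM. The largest cluster of WT_Ctrl, 648 cells, had 9.44 CPM. Most large macrophage clusters came from 1 library, so cluster and library cannot be separated for them. A cluster led by Mmp12, Lyz1 and Retnla was shared by both UVB libraries and had 1611 CPM over 52 cells of WT_UV and 3690 CPM over 79 cells of RP_UV.

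The neutrophil transcripts S100a8 and S100a9 stood in the library order of Cxcl2 in macrophages, whereas the sum of all 8 neutrophil markers did not. In macrophages, S100a8 and S100a9 together were at 0.143 CPM in WT_Ctrl, 5.28 in WT_UV and 75.3 in RP_UV, and a UMI of either was found in 0.0554%, 3.41% and 8.31% of macrophages. Of the 8 neutrophil markers, 5, 6 and 7 were detected in macrophages of WT_Ctrl, WT_UV and RP_UV, at a summed level of 134, 116 and 131 CPM, and Ly6g was at 0 in both UVB libraries. Scaled by S100a8 and S100a9, neutrophil RNA at the level in macrophages would carry 57.0 CPM of Cxcl2 in RP_UV, 4.92% of the level measured there, and 0.870% of it in WT_UV. Macrophages without a UMI of S100a8 or S100a9 had Cxcl2 at 93.8, 417 and 1063 CPM. In other classes of RP_UV the same scaling gave a larger part of the Cxcl2 level: 33.7% in Langerhans cells, 50.5% in T cells and 346% in keratinocytes, a cell type that can itself express S100a8 and S100a9 in inflamed skin.

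Other immune cells held Cxcl2 at levels set by few cells. Langerhans cells, the dendritic cells of the epidermis, had 64.5 CPM over 74 cells of WT_Ctrl, 555 over 83 cells of WT_UV and 3748 (3491 to 4018) over 37 cells of RP_UV. In T cells of WT_UV, 3 of 687 cells held 50% of the 912 UMIs. In basophils of WT_UV, 4 of 13 cells had Cxcl2, for a level of 4581 CPM. Keratinocytes had 0.123, 20.3 and 45 CPM, and a single cell held 66.0% of the WT_UV value. At 1000 UMIs per cell, Cxcl2 was found in 2.60% of keratinocytes and 4.69% (2.17 to 8.71) of fibroblasts of RP_UV, shares that could not be told from the 4.35% of T cells, which rests on 2 of 46 cells. The summed level in fibroblasts of RP_UV was 166 CPM (142 to 192), above the 47.7 (17.5 to 104) of T cells, and neutrophil RNA scaled by S100a8 and S100a9 would carry 21.9% of it.

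The class that held the largest part of Cxcl2 UMIs differed between libraries. Neutrophils held 4.22% of Cxcl2 UMIs in WT_Ctrl, 12.5% in WT_UV and 49.9% in RP_UV, while macrophages held 48.7%, 34.5% and 25.7%. Monocytes held 24.2%, 19.0% and 1.16%. Clusters without a name held 12.0%, 25.3% and 20.1%. In RP_UV some of those unnamed clusters were led by S100a9, S100a8 or Il1b besides genes of other cell types, and with each unnamed cluster given its nearest class the neutrophil share was 60.9%. With every cell weighted equally it was 75.9%.

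**Figure D3:**
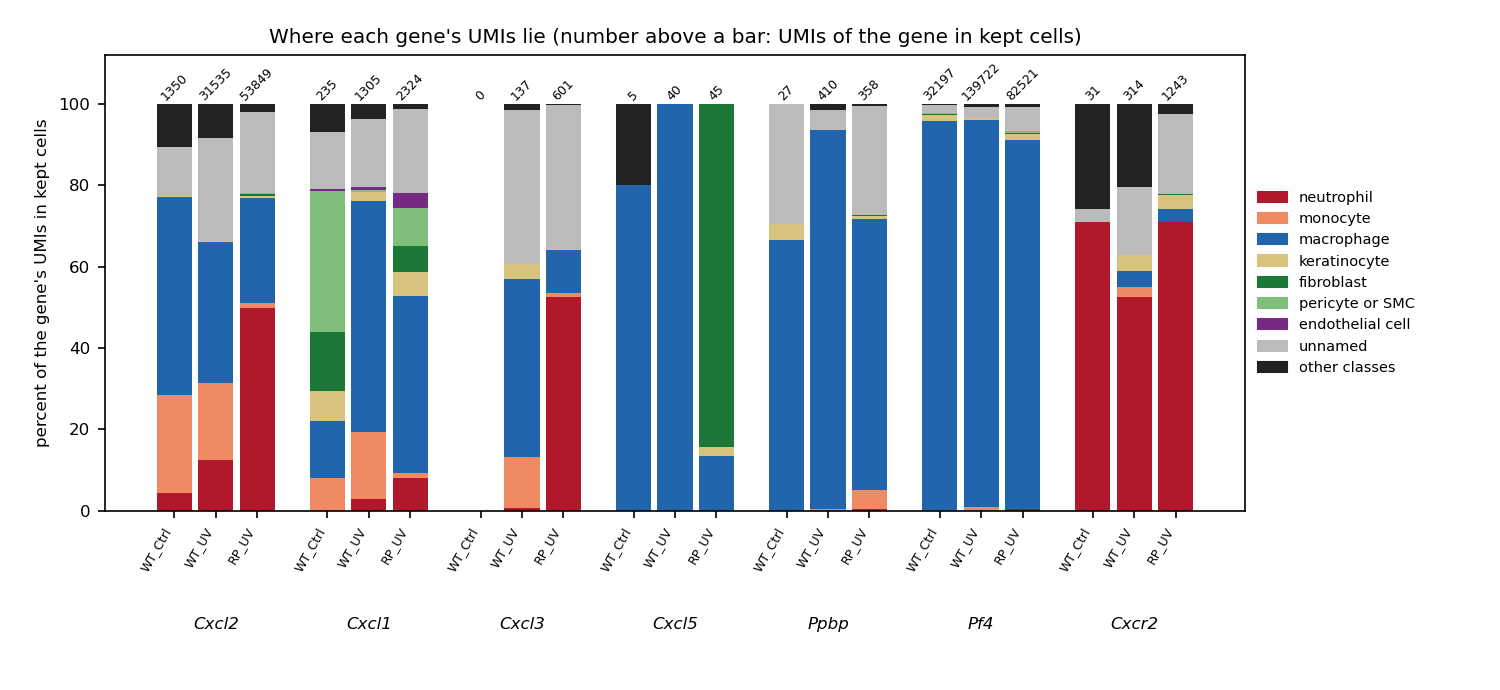
Percent of each gene's UMIs in kept cells that lay in each class, 1 stacked bar per library, with the number of UMIs above the bar. For Cxcl2 the neutrophil part was 4.22%, 12.5% and 49.9% in WT_Ctrl, WT_UV and RP_UV, and Pf4 lay in macrophages at 90.8% or more in every library. Cxcl3 had no UMI in WT_Ctrl and so no bar.

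Cxcl1, the ligand also known as KC, was spread over stromal and myeloid cells, and its level over all kept cells was 9.11 CPM in WT_Ctrl, 20.2 in WT_UV and 79.8 in RP_UV. In WT_Ctrl non-immune classes held 59.6% of its UMIs, against 3.45% in WT_UV and 26.2% in RP_UV. As given for Cxcl2, those classes made up a smaller part of the UMIs of all genes in WT_UV. Fibroblasts numbered 210, 9 and 205 and endothelial cells 77, 25 and 259, so these shares also depend on how many such cells were captured. Pericytes or smooth muscle cells, the contractile cells of vessel walls, alone held 34.9% of the UMIs of WT_Ctrl from 52 cells. Their level was 501 CPM (398 to 622) in WT_Ctrl, 69.8 (25.6 to 152) in WT_UV and 389 (339 to 444) in RP_UV. A UMI was found in 18 of 52 cells, 1 of 19 cells and 57 of 183 cells. The same-run ratio of RP_UV over WT_Ctrl was 0.776 (0.5996 to 1.01), an interval that included 1, and the WT_UV value rests on 6 UMIs of 1 cell. The 7 pericyte markers were all detected in each library, at a summed 24086, 26660 and 28138 CPM.

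Macrophages followed the order of libraries seen for Cxcl2. Cxcl1 was at 4.70 CPM (3.24 to 6.61) in WT_Ctrl from 33 UMIs, 29.0 (26.99 to 31.2) in WT_UV from 742 UMIs, and 84.6 (79.5 to 90.0) in RP_UV from 1011 UMIs. The ratio was 6.17 (4.36 to 9.04) for WT_UV over WT_Ctrl, 2.91 (2.65 to 3.21) for RP_UV over WT_UV and 18.0 (12.7 to 26.3) for RP_UV over WT_Ctrl. At 1000 UMIs per cell, 0.288%, 1.59% and 5.17% of macrophages had a UMI, against 0%, 0.292% and 0% of T cells, where 0 of 46 cells in RP_UV allows up to 6.52%. Monocytes had 20.8, 39.2 and 99.4 CPM, each above macrophages of the same library, though in RP_UV the intervals of the classes overlapped (66.0 to 144 in monocytes).

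In fibroblasts, which build the dermal matrix, Cxcl1 was at 26.0 CPM (18.0 to 36.3) in WT_Ctrl and 140 (119 to 165) in RP_UV, a same-run ratio of 5.41 (3.71 to 8.10), or 9.97 from cells thinned to 1000 UMIs. The class was made up differently in the 2 libraries: 102 of the 210 cells of WT_Ctrl lay in a cluster with 13 cells of RP_UV, and the largest cluster of RP_UV, 63 of 205 cells, had 25 cells of WT_Ctrl. Within the latter Cxcl1 did not differ beyond counting error, at 182 CPM (120 to 265) in WT_Ctrl and 176 (137 to 223) in RP_UV, and the 102 cells of WT_Ctrl had 4.27 CPM from 3 UMIs. Of thinned cells at that depth, 1.92% (0.526 to 4.85) of fibroblasts of WT_Ctrl and 13.0% (8.61 to 18.6) of RP_UV had a UMI, and these intervals did not overlap. The WT_UV value of 16.8 CPM (0.425 to 93.5) came from 1 UMI in 9 cells, so the ratio of RP_UV over WT_UV, 8.37, had an interval of 1.48 to 333. Endothelial cells, which line the vessels that neutrophils cross, had 4.24 CPM (0.107 to 23.6) in WT_Ctrl from 1 UMI, 54.4 (27.1 to 97.3) in WT_UV and 82.7 (66.2 to 102) in RP_UV. The UVB libraries overlapped, with a ratio of 1.52 (0.809 to 3.16). This class also differed in makeup, since its 6 lymphatic endothelial markers summed to 865, 999 and 22.1 CPM, with Ccl21a and Reln at 0 in RP_UV. Keratinocytes of RP_UV had 17.0 CPM against 3.81 in WT_UV and 2.09 in WT_Ctrl, a ratio of 4.45 (2.93 to 6.99) between the UVB libraries. After thinning, 12 of 1039 keratinocytes of RP_UV had a UMI, a share within the bound of T cells given above. Keratinocytes differed in makeup too, with 8 follicle or gland markers at a summed 4331, 8519 and 12370 CPM. Neutrophils had no Cxcl1 UMI in WT_Ctrl, where 3 counts would give 133 CPM, and 205 (145 to 281) and 202 (174 to 234) CPM in WT_UV and RP_UV. Unlike Cxcl2, Cxcl1 in neutrophils thus overlapped between the UVB libraries, with a ratio of 0.988 (0.694 to 1.44).

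Cxcl3, which shared the longest run of bases with Cxcl2, had no UMI in the 5309 cells of WT_Ctrl, 137 UMIs in WT_UV and 601 in RP_UV. Against the floor of 3 counts in WT_Ctrl this was 18.2-fold higher in WT_UV and 177-fold higher in RP_UV. That floor is a convention and not a lower limit that covers counting error. The named class that held most of it differed. In WT_UV macrophages held 43.8% of the UMIs and neutrophils 1 UMI, or 5.39 CPM. An unnamed cluster of 28 cells held 48 of the 137 UMIs of WT_UV, at 83.2 CPM. It was split from the same cluster as the neutrophils and some dendritic cells. How naming it would change the shares and the neutrophil ratio was not tested. In RP_UV neutrophils held 52.4%, with 315 UMIs in 67 of 559 cells, or 345 CPM (308 to 385). The ratio in neutrophils of RP_UV over WT_UV was 63.9 (11.4 to 2533), and 8 cells held 50% of the RP_UV UMIs. In macrophages the level was 2.35 CPM in WT_UV and 5.27 CPM in RP_UV, a ratio of 2.25 (1.55 to 3.25).

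Cxcl5, in other tissues a product of epithelium, was rarely detected, with 5 UMIs in WT_Ctrl, 40 in WT_UV and 45 in RP_UV. All 40 UMIs of WT_UV lay in macrophages, in 32 cells. In RP_UV 38 of the 45 UMIs lay in 2 of 205 fibroblasts. In macrophages Cxcl5 was lower in RP_UV than in WT_UV, the reverse of Cxcl1 and Cxcl2, with a ratio of 0.321 (0.111 to 0.762) on 6 and 40 UMIs. Keratinocytes had 1 UMI over the 3 libraries.

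Ppbp, the precursor of neutrophil-activating peptide 2 and a classical platelet transcript, was carried here by macrophages. Of its 27 UMIs in unirradiated skin they held 18, of 410 in WT_UV they held 382, and of 358 in RP_UV 239. The level was 2.57 CPM (1.52 to 4.05), 14.9 (13.5 to 16.5) and 20.01 (17.6 to 22.7), and the ratio was 5.83 (3.64 to 9.94) for WT_UV over WT_Ctrl and 1.34 (1.13 to 1.58) for RP_UV over WT_UV. Macrophages with a UMI numbered 18, 165 and 103. Of the 20, 180 and 125 kept cells with Ppbp, 1, 0 and 5 also had a UMI of a platelet marker. Over all macrophages, 2, 6 and 3 of the 8 markers of the platelet panel were detected, at a summed 16.1, 16.9 and 21.1 CPM. Cells with 3 platelet markers numbered 1, 0 and 3 and held 8 of the 27, 0 of the 410 and 43 of the 358 Ppbp UMIs. The macrophage clusters with the highest Ppbp were the Il1b cluster of WT_UV at 73.1 CPM and a cluster of 388 cells of RP_UV at 58.6 CPM.

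Pf4, the ligand that does not use Cxcr2, was found in nearly every macrophage of each library. Macrophages had 4399 CPM (4350 to 4448) in WT_Ctrl, 5205 (5177 to 5233) in WT_UV and 6274 (6229 to 6319) in RP_UV. After thinning, 91.3%, 91.0% and 94.4% of macrophages had a UMI. The ratios were 1.18 (1.17 to 1.20), 1.21 (1.20 to 1.22) and 1.43 (1.41 to 1.44), past counting error but small beside those of Cxcl2. Macrophages held 95.9%, 95.2% and 90.8% of Pf4 UMIs. Other classes had it at a low level that moved together: T cells had 36.6, 67.3 and 238 CPM and a UMI in 4.17%, 8.02% and 26.1% of thinned cells, and neutrophils had 44.2, 97.1 and 276 CPM. Cells with 3 platelet markers held 0.0404%, 0% and 0.395% of its UMIs. Among macrophage clusters the level reached 9280 CPM in the RP_UV cluster of 388 cells and 5709 CPM in the largest cluster of WT_Ctrl.

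The receptor gene Cxcr2 did not differ between the neutrophils of the 3 libraries beyond counting error. It was 973 CPM (610 to 1473) in WT_Ctrl from 22 UMIs, 890 (759 to 1036) in WT_UV from 165 UMIs, and 965 (903 to 1031) in RP_UV from 882 UMIs. All pairs of intervals overlapped, and the ratio was 0.915 (0.584 to 1.499) for WT_UV over WT_Ctrl and 1.08 (0.918 to 1.29) for RP_UV over WT_UV. With unnamed clusters counted under their nearest class, which adds cells led by genes of several types, the last ratio was 4.20. Of the thinned cells, 66.7%, 48.2% and 57.6% of neutrophils had a UMI. Over all kept cells, by contrast, Cxcr2 was at 1.20, 4.86 and 42.7 CPM, a ratio of 8.77 for RP_UV over WT_UV. Neutrophils held 71.0%, 52.5% and 71.0% of its UMIs, and in macrophages it was at 0, 0.470 and 3.26 CPM. Within neutrophils of RP_UV it was highest, at 1368 CPM (1206 to 1547), in the cluster led by Retnlg and G0s2, in which Cxcl2 was lowest. The other clusters had 977 and 798 CPM. Basophils of WT_UV had 322 CPM from 23 UMIs.

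**Figure D4:**
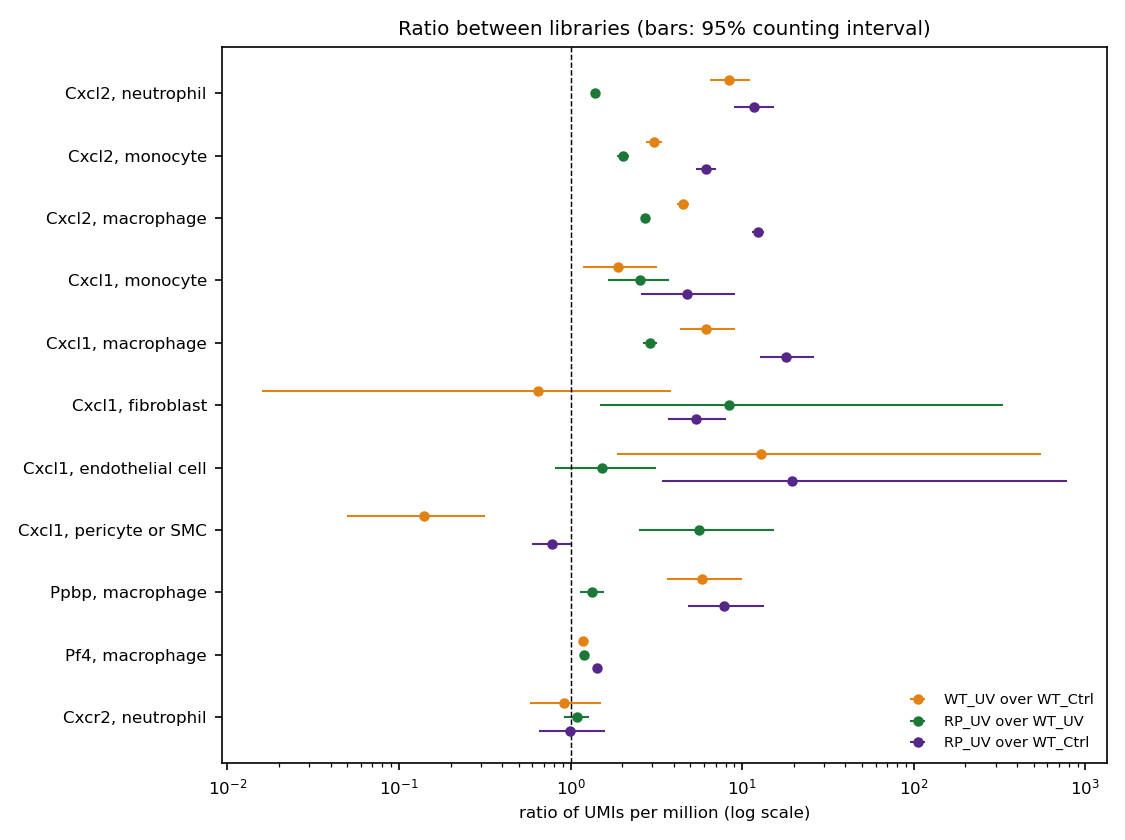
Ratio of CPM between libraries (log axis) for 11 pairs of a gene and a class, with 95% counting intervals and a dashed line at 1. Cxcl2 and Cxcl1 in macrophages and monocytes lay above 1 in every comparison, Cxcl1 of pericytes or smooth muscle cells lay at 0.139 for WT_UV over WT_Ctrl, and Cxcr2 of neutrophils spanned 1 in each comparison.

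Read against all genes, a gene was called here when its level with 1 CPM added differed by 2-fold or more, among genes at 5 CPM or more on average. In macrophages 4 of the 7 genes passed that filter in each comparison. For WT_UV over WT_Ctrl, Cxcl1, Cxcl2 and Ppbp, 3 of the 4, were higher, against 2.77% of the 9176 genes tested, and none was lower, against 0.905%. For RP_UV over WT_UV, Cxcl1 and Cxcl2, 2 of the 4, were higher, against 1.18% of 9137 genes, and none was lower, against 2.74%. For RP_UV over WT_Ctrl, 3 of 4 were higher, against 4.42%, and none lower, against 4.01%. The median log2 fold of the 4 was 2.17, 0.92 and 3.08, and that of all genes tested was 0.04, -0.05 and 0.02.

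In monocytes 2 of 3, 4 of 5 and 5 of 5 genes were higher in the comparisons WT_UV over WT_Ctrl, RP_UV over WT_UV and RP_UV over WT_Ctrl, against 5.14%, 7.22% and 10.9% of genes. Cxcl2 was among them each time. Pf4 joined it in the first, Cxcl1, Cxcl3 and Ppbp in the second, and all of these in the last. The RP_UV values rest on 52 cells, with Cxcl3 at 24.8 CPM. Pf4 was found in 65 of 412 thinned monocytes of WT_UV, a larger share than in T cells there. In RP_UV it was found in 9 of 49, a share not above that of T cells. In the largest cluster of RP_UV monocytes, Cxcl2 of RP_UV overlapped both other libraries, as given above. In dendritic cells 2 of 3 (Cxcl2 and Pf4), 3 of 3 (with Cxcl1) and 3 of 3 were higher, against 2.79%, 10.7% and 13.1%. The RP_UV dendritic cells numbered 46, with Cxcl1 at 28.4 CPM. Neutrophil RNA scaled by S100a8 and S100a9 would carry 19.2% of their Cxcl2 level. In keratinocytes 1 of 2 (Cxcl2), 2 of 3 (Cxcl1 and Cxcl2) and 3 of 3 (with Pf4) were higher, against 2.29%, 4.31% and 6.29%, and none was lower, against 1.4%, 3.49% and 7.17%. In neutrophils of RP_UV over WT_UV, 2 of 5 genes (Cxcl3 and Pf4) were higher, where 12.5% of genes were. In fibroblasts of RP_UV over WT_Ctrl, 4 of 4 genes (Cxcl1, Cxcl2, Cxcl5 and Pf4) were higher, against 9.01%, and in endothelial cells 3 of 3 (Cxcl1, Cxcl2 and Pf4), against 10.2%. Endothelial cells had 1 of 2 (Cxcl1) higher for WT_UV over WT_Ctrl, against 15.7%. For RP_UV over WT_UV they had 2 of 3 (Cxcl2 and Pf4), against 12.1%. Elsewhere Pf4 calls rested on 276 CPM in neutrophils, 142 in keratinocytes, 236 in fibroblasts and 163 in endothelial cells of RP_UV. None of these levels was above the interval of T cells of that library (161 to 340). The fibroblast calls include Cxcl5, of which 2 cells held all 38 UMIs, and those of fibroblasts and keratinocytes include Cxcl2, whose share of cells could not be told from that of T cells. Endothelial calls include Cxcl2, at 18.3 CPM in RP_UV, below the 47.7 of T cells, and Cxcl1, at 4.24 CPM in WT_Ctrl from 1 UMI. Keratinocyte calls also include Cxcl1, whose share of cells in RP_UV lay within the bound of T cells given above. In T cells Cxcl2 was higher in WT_UV than in WT_Ctrl, 1 of 2 genes against 3.74%, and was the only gene called lower, in RP_UV against WT_UV, where 13.5% of genes were. Of the 687 T cells of WT_UV, 3 held 50% of the Cxcl2 UMIs. Pf4 was called higher in T cells for RP_UV over WT_UV, 1 of 3 genes against 11.1%, and over WT_Ctrl, 1 of 2 against 12.6%.

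Most macrophages with Cxcl1 also had Cxcl2. At 1000 UMIs per cell, 26 of the 32 macrophages of WT_UV with Cxcl1 also had Cxcl2, or 81.2%, against 12.0% of the rest. In RP_UV it was 94 of 113, or 83.2%, against 24.6%, and in WT_Ctrl 3 of 5. In fibroblasts of RP_UV it was 3 of 25, or 12%, against 3.59%. Pf4 went the other way in macrophages: it was found in 78.2%, 78.3% and 91.9% of cells with Cxcl2, against 91.7%, 92.9% and 95.3% of cells without it.

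In macrophages the upstream cytokine genes Il1b and Tnf were higher in both UVB libraries than in WT_Ctrl, and higher in WT_UV than in RP_UV. Il1b, the cytokine interleukin 1 beta, was at 43.6 CPM in unirradiated skin and at 228 and 174 CPM in WT_UV and RP_UV, and Tnf, tumour necrosis factor, at 17.1, 71.7 and 59.5 CPM. Both passed 2-fold for WT_UV over WT_Ctrl, as 2 of the 4 tested of 11 listed cytokines and receptors, against 2.77% of all genes. For RP_UV over WT_UV 0 of 4 were higher, against 1.18% of all genes. Of 6 listed genes of transcript control, Zc3h12a, an RNase that degrades cytokine messages, was higher in WT_UV than in WT_Ctrl, at 23.6 against 11.1 CPM. In that comparison 2.77% of all genes were higher. Nfkbia, the NF-kB inhibitor that NF-kB itself induces, was the 1 of the 6 that passed in RP_UV over WT_Ctrl, against 4.42% of all genes. It was at 208, 390 and 647 CPM in the 3 libraries, the order of Cxcl1 and Cxcl2. In neutrophils Il1b was at 8005, 27666 and 29838 CPM. None of the 6 transcript control genes passed 2-fold there between the UVB libraries, where 12.5% of all genes were higher and 16% lower. Nfkbia was at 6315 and 9637 CPM.

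Of 4 listed further receptors by which neutrophils sense attractants, 2 were higher by 2-fold or more in neutrophils of RP_UV than of WT_UV, where 12.5% of all genes were. Fpr1, a receptor for bacterial formyl peptides, was at 16.2 CPM in WT_UV, from 3 UMIs, and 275 in RP_UV, and Fpr2 at 97.1 and 241 CPM. The others did not pass: C5ar1, the receptor for complement C5a, was at 485 and 715 CPM, and Ltb4r1, a leukotriene B4 receptor, at 129 and 213 CPM. Cxcr1, the sister receptor of Cxcr2, was at 5.39 and 15.3 CPM from 1 and 14 UMIs. In the opposite direction, Cxcr4, the receptor that holds neutrophils in the bone marrow, was at 739 and 204 CPM. Rgs2, a brake on G protein signalling, was at 1343 and 396 CPM. In these neutrophils 16% of all genes were lower by 2-fold or more. Neither fall was particular to neutrophils: in monocytes Cxcr4 was at 250 CPM in WT_UV and 67.4 in RP_UV, and Rgs2 at 474 and 135. In fibroblasts of RP_UV over WT_Ctrl, Cxcl12, the ligand of Cxcr4, was at 384 against 117 CPM, and Nfkbiz, a co-activator of NF-kB targets, at 92.4 against 23.7 CPM. Of 11 genes of the stress response to tissue digestion, 0 were higher in macrophages for WT_UV over WT_Ctrl, 1 (Egr1) for RP_UV over WT_UV and 4 (Jun, Egr1, Atf3 and Hspa1a) for RP_UV over WT_Ctrl, against 2.77%, 1.18% and 4.42% of all genes, and none was lower. In fibroblasts of RP_UV over WT_Ctrl 5 of the 11 were higher, against 9.01%. The part of that stress response in the chemokine levels was not tested.

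Across 34 profiles of a class in a library, the genes most like each member were found among 8402 genes by Pearson's r of log2(CPM + 10), given as a description since profiles share libraries. Cxcl2 was most like Ccr1 (r = 0.94), a chemokine receptor of myeloid cells, Nlrp3 (0.93), an inflammasome sensor, and Ptgs2 (0.88), whose rat form is overexpressed in RP mice. Cxcr2 was most like Slpi (0.97), and Pf4 most like C1qc (0.92), a complement gene of macrophages. Ppbp was most like Trem2 (0.78), a lipid receptor of macrophages, and Cxcl3 most like Gpr84 (0.89). For Cxcl1 the highest r was lower, 0.70 with Txn1. That of Cxcl5 (0.99 with Mup17) rests on the fibroblasts of RP_UV, where 2 cells held the transcript. Between members, r was 0.24 for Cxcl1 with Cxcl2 and 0.75 for Cxcl2 with Cxcr2.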

How the data were processed

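Deposited values were raw UMI counts of each gene in each called cell, not normalized, which the authors made from 10x 3' libraries of CD45+ enriched skin with Cell Ranger 6.1.1 on mm10 per the file headers and the submitters' processing notes. Members and gene lists were chosen with earlier results of these data known. Beside the 7 members, genes were named from the lists below, up to 4 per list and class, those with the most UMIs, and for each member the 3 most alike genes at most. Zc3h12a and Egr1 were named after their values were seen.

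Cells were filtered as in the study's methods: cells needed under 10% mitochondrial UMIs and over 200 but under 4000 genes (under 6000 in WT_UV, where 1112 kept cells had 4000 or more). Libraries were normalized with sctransform 0.4.2 and integrated in Seurat 5.3.0 (R 4.3.3; 3000 features, 30 dimensions, resolution 0.8), with the 7 members left out of the features. Clusters were split again with leidenalg 0.10.2 into 139, of which 101 were named from 24 marker panels. The limits of that rule were set after the clusters had been seen. Doublets were left in. Scrublet (scanpy 1.11.5) marked 1.32%, 0.0191% and 0.0329% of cells in WT_Ctrl, WT_UV and RP_UV, which is too few in the last 2 to have worked.

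Counts were summed per class and library and divided by all UMIs of the class. Intervals are exact Poisson for CPM, exact binomial (Clopper-Pearson) for shares and exact conditional for ratios, computed in scipy 1.17.1, and cover counting error only. A floor is 3 counts. Shares of cells were taken after thinning to 1000 UMIs, shallower cells left out. Fold calls used a pseudocount of 1 CPM, a mean of at least 5 CPM and classes with at least 100000 UMIs. The calculation was tested on simulated data. The alternatives were other filters, class rules, doublet removal, thinning depths and pseudocounts. The lists were other ligands and receptors of the axis, upstream cytokines and receptors, transcript control, receptor signalling and adhesion, other attractant receptors, and dissociation stress.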

Additional observations from a re-analysis of the deposited data

Results flagged for a closer look

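The barcodes removed by the filter on cells, 668, 924 and 1170 in WT_Ctrl, WT_UV and RP_UV, enter no comparison above, and members were above their level in the removed barcodes of WT_Ctrl there too. Cxcl2 was at 190 CPM in those of WT_UV and 309 CPM in those of RP_UV, against 15.1 in WT_Ctrl. Cxcl1 was at 7.71 and 28.2 CPM against 3.05. Cxcl3 was at 4.67 CPM in RP_UV and had no UMI in WT_Ctrl. Ppbp was at 1.98 CPM in WT_UV and likewise had none in WT_Ctrl. Pf4 was at 376 and 437 CPM against 53.9, and Cxcr2 at 2.81 and 9.34 CPM against 0.218. The removed barcodes were not put into classes.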

How the results depend on the processing

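No paired analysis was possible because each group has 1 library. Of 76 alternative values of 9 ratios and shares, 38 stayed within the counting interval, 37 moved outside it and 1 fell on the other side of 1; why was not tested. For Cxcl2 in macrophages, WT_UV over WT_Ctrl (4.54) became 5.18 with a limit of 4000 genes in every library, 2.05 with classes from marker UMIs of each cell, 2.01 with these and no filter, 4.02 with clusters of the libraries pooled without integration, and 5.22 after thinning. RP_UV over WT_UV (2.72) became 2.38 with the 4000-gene limit, 2.59 by marker UMIs with and without the filter, 2.44 with pooled clusters, 2.98 as a mean over cells, 2.87 without the cells of highest doublet score and 2.55 without cells that had S100a8 or S100a9. RP_UV over WT_Ctrl (12.3, added after seeing the data) became 5.31 by marker UMIs, 5.20 with these and no filter, 9.81 with pooled clusters, 14.1 as a mean over cells, 14.0 without the cells of highest doublet score, 14.2 after thinning and 11.3 without cells that had S100a8 or S100a9. The share of Cxcl2 UMIs in neutrophils of RP_UV (49.9%) became 47.3% with no filter, 49.0% by marker UMIs, 50.4% with pooled clusters, 60.9% with unnamed clusters given their best panel, 55.0% without the cells of highest doublet score, and 75.9% and 76.0% with cells weighted equally or thinned. Cxcl1 in macrophages, RP_UV over WT_UV (2.91), became 3.59 as a mean over cells and after thinning, and Cxcl1 in fibroblasts, RP_UV over WT_Ctrl (5.41), became 9.97 after thinning. Pf4 in macrophages (1.21) became 1.28 with the 4000-gene limit, 1.11 by marker UMIs with no filter, 1.08 with the filter, 1.24 with pooled clusters, 1.23 as a mean over cells, 1.18 without the cells of highest doublet score and 1.25 after thinning. Cxcr2 in neutrophils, RP_UV over WT_UV (1.08), became 4.20 with unnamed clusters given their best panel and 0.98 after thinning. Without a filter on low values, members called higher numbered 5 in macrophages and 2 in T cells for RP_UV over WT_Ctrl, and 4 in monocytes, 3 in T cells, 2 in endothelial cells and 2 in keratinocytes for WT_UV over WT_Ctrl; members called lower numbered 2 in T cells for RP_UV over WT_UV and 1 in dendritic cells in each RP_UV comparison. With a pseudocount of 5 CPM, 1 member was higher in keratinocytes for RP_UV over WT_UV. Depth limits Cxcl3 and Cxcl5 in WT_Ctrl, where 3 counts are the floor, and every value from the 12 neutrophils of WT_Ctrl and the 9 fibroblasts of WT_UV.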
